A study of Mus musculus with 163 samples.

Results

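Mitochondrial ribosomal proteins were examined as 1 gene group in single mouse oocytes. Members were all genes of the count table whose RefSeq symbol starts with Mrpl or Mrps and a digit, with names containing -ps left out. The rule found 62 genes of 21950, 38 named Mrpl and 24 named Mrps, and used no measured value. The data were 163 libraries of 1 oocyte each, made by Smart-seq2, a full-length protocol for polyadenylated RNA.

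Growing oocytes (GROs) and fully grown oocytes (FGOs) of 3 origins were compared. Oocytes of iPSC origin came from BVSC-iPSC, a single female line of induced pluripotent stem cells made from adult tail tip fibroblasts, which carries the Blimp1-Venus and Stella-ECFP reporters (23 GROs and 24 FGOs). Their germ cells were combined with gonadal somatic cells of outbred mice into reconstituted ovaries. Oocytes of gonad origin were cultured from E12.5 embryonic gonads (24 GROs and 24 FGOs). In vivo oocytes developed in the animal (24 GROs and 20 FGOs). A further 24 FGOs were grown in culture from follicles isolated at 6 dpp (days after birth). The labels give no strain or animal age for the in vivo groups and name no animal or culture behind any oocyte, so each group counts as 1 sample, oocytes are not its replicates, and no test was possible.

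Mitochondria translate the few proteins of their own genome, which are subunits of the respiratory chain and ATP synthase, on ribosomes with a small and a large subunit. The ribosomal RNAs are made in the mitochondrion, whereas every protein of these ribosomes is encoded in the nucleus, made in the cytosol and imported. Some of the proteins descend from bacterial ones and others exist only in mitochondria. Proteins named Mrps belong to the small subunit and those named Mrpl to the large subunit, with exceptions such as Mrps18a and Mrps30, which sit in the large subunit, and Mrps36, since assigned to the 2-oxoglutarate dehydrogenase complex. Oocytes build up their mitochondria during growth and pass them to the embryo. The table held 0 rows for genes of the mitochondrial genome, so neither the ribosomal RNAs nor the translated mRNAs were measured.

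The members lie on many chromosomes and not in clusters. The most on 1 chromosome were the 9 on chromosome 11, and the only pair within 200000 bases was Mrpl58 and Mrps7, with 191465 bases between them. Promoter windows from RefSeq (GRCm38.p6, 250 bases before to 50 bases after a start) were found for 53 members. The windows were searched on both strands for the letters of 3 factors known to act on nuclear genes of mitochondria: NRF1 (GCGCNTGCG), the ETS family including GABP (CCGGAAG) and YY1 (AAGATGG). NRF1 letters were in the windows of 13 members (24.5%), compared with 7.12% of all genes and 13.0% of the other genes that passed the filter on low values. ETS letters were in 20 members (37.7%), compared with 9.93% and 16.5%. YY1 letters were in 10 members (18.9%), compared with 7.28% and 7.87%. At least 1 of the 3 was in 35 members, 2 of them were in 8 members and all 3 were in 0. SP1 letters (GGGCGG) were in 41.5% of members, 38.2% of all genes and 62.2% of the other filtered genes, and TATAAA in 5.66%, 15.7% and 10.3%. The median share of G and C was 58.0% in member windows and 59.3% in those of the other filtered genes.

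The 250 bases before the start are shown, 5′ to 3′ on the gene's strand, for 5 of the 7 members that were lower in FGOs than in GROs of every origin, the others having no entry. They are Mrpl43 (chr19:45006443-45006692, minus strand), Mrpl27 (chr11:94653541-94653790, plus strand), Mrpl17 (chr7:105811088-105811337, minus strand), Mrpl20 (chr4:155802628-155802877, plus strand) and Mrps6 (chr16:92058086-92058335, plus strand), all in GRCm38.p6. For Mrpl27 the start is that of its promoter window. The RefSeq gene begins at base 94653770, so the last bases of its stretch lie inside the gene. Capitals mark NRF1 and ETS letters, and no YY1 letters lay in these stretches.
Mrpl43: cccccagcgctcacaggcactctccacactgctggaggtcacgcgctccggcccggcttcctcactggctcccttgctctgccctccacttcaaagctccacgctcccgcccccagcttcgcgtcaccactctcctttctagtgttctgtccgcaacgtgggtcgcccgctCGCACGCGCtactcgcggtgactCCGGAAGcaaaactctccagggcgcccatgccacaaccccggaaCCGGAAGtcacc
Mrpl27: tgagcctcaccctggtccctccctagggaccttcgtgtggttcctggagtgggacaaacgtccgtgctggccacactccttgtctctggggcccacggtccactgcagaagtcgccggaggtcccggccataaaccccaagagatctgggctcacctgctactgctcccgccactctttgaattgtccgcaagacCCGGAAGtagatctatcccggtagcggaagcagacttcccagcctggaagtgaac
Mrpl17: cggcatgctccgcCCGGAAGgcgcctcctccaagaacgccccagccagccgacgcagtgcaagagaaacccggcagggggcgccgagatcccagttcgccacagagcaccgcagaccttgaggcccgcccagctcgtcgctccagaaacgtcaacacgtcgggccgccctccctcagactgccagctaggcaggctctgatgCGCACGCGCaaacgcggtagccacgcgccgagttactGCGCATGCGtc
Mrpl20: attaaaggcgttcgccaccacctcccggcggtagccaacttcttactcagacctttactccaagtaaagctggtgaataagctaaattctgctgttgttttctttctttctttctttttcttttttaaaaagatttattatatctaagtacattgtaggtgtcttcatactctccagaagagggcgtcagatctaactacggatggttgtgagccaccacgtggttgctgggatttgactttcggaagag
Mrps6: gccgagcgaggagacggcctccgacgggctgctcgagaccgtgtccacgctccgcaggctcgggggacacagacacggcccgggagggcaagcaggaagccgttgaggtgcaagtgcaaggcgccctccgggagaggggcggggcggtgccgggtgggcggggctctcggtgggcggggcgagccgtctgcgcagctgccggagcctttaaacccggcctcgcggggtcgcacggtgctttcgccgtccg

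The first 3 sequences hold at least 1 of the marked matches, and those of Mrpl20 and Mrps6 hold none. Mrpl43 and Mrpl17 hold NRF1 as well as ETS letters, and Mrpl27 holds ETS letters 55 bases before the start of its promoter window, which differs from its RefSeq gene start. A match is a string of letters and not a measured binding site.

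Total counts per oocyte ran from 2.17 to 13.7 M (M for 1000000 reads), with a median of 6.93 M. The 12 oocyte markers fixed for this work were measured in every group, and their summed level ran from 22496 CPM (counts per 1000000 counts of the library) in iPSC FGOs to 52368 CPM in in vivo GROs. Of 14 granulosa markers 12 were in the table, with pooled sums of 240 to 458 CPM; 6 dpp FGO 12 reached 2568 CPM, and without it the 6 dpp value was 369 CPM in place of 458. The 10 theca and stroma markers summed to 2.24 to 15.6 CPM, the latter in 6 dpp FGOs and 8.94 CPM there without oocyte 12, and the 3 measured blood markers to at most 0.0897 CPM. The part of the granulosa markers in the members' values was not tested. Gonad FGOs 5 and 22 were the shallowest libraries. Gonad FGO 19 stood apart from its group in the level of the members.

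**Figure D1:**
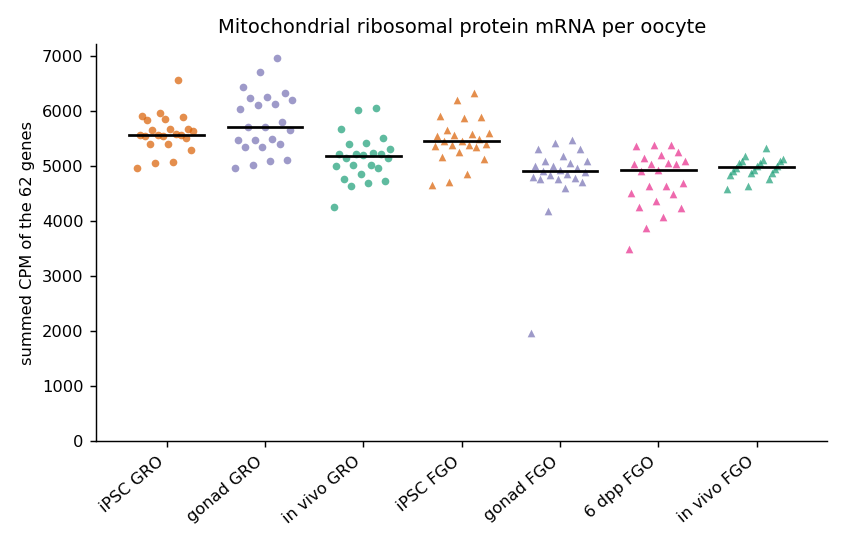
Summed level of the 62 genes in each oocyte, in CPM (y axis), by group (x axis); circles are GROs, triangles FGOs, and black bars group medians. Group medians lie between 4922 and 5710 CPM, and gonad FGO 19 lies alone at 1964 CPM.

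Together the 62 members had group medians between 4922 and 5710 CPM. CPM is a share of the counted reads, so a lower value and a rise of other transcripts cannot be told apart. The summed level was 5602 ± 338 CPM (SD over 23 oocytes) in iPSC GROs, 5797 ± 549 CPM (24 oocytes) in gonad GROs and 5157 ± 413 CPM (24 oocytes) in in vivo GROs. In FGOs it was 5470 ± 406 CPM for iPSC (24 oocytes), 4833 ± 671 CPM for gonad (24 oocytes; 4958 ± 283 CPM without number 19, a choice made after seeing the data), 4759 ± 506 CPM for 6 dpp (24 oocytes) and 4973 ± 179 CPM for in vivo origin (20 oocytes). Lowest, median and highest oocytes were at 4972, 5577 and 6561 CPM in iPSC GROs, 4969, 5710 and 6973 CPM in gonad GROs and 4260, 5179 and 6059 CPM in in vivo GROs. In FGOs they were at 4662, 5456 and 6328 CPM for iPSC, 1964, 4922 and 5479 CPM for gonad, 3499, 4924 and 5387 CPM for 6 dpp and 4591, 4983 and 5335 CPM for in vivo origin. The ranges of all 7 groups overlapped. In growth in vivo 2 of 20 FGOs lay above the GRO median and 0 below every GRO, in growth of iPSC-derived oocytes 8 of 24 lay above the GRO median and 3 below every GRO, and in growth of gonad-derived oocytes 0 of 24 lay above the GRO median and 14 below every GRO. In gonad against in vivo GROs 9 of 24 lay above every in vivo GRO, and in iPSC against gonad FGOs 11 of 24 lay above every gonad FGO. The sum of Mrpl over that of Mrps genes had group medians from 1.40 in gonad FGOs to 1.63 in in vivo GROs.

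Gonad FGO 19, with 6.95 M counts, held 1964 CPM of members, and the next lowest gonad FGO held 4191 CPM. It was also the lowest of its group for cytosolic ribosomal proteins (1171 CPM) and for nuclear subunits of oxidative phosphorylation (5332 CPM). The lowest 6 dpp oocyte was number 18, at 3499 CPM. Gonad FGO ranges below include number 19 unless a value without it is given.

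Levels of single members, compared per kilobase of the exonic length the authors counted over (RPKM, the CPM per 1000 bases), spread widely. The median member had a mean of 50.9 RPKM over the 7 groups, with quartiles of 24.9 and 81.2 RPKM, and 57 of 62 members were within 4-fold of the median. The 5 highest were Mrpl14 (258 RPKM), at the face between the subunits, Mrpl18 (196 RPKM), the counterpart of a bacterial 5S RNA binding protein, Mrpl24 (170 RPKM), near the exit of the peptide tunnel, Mrpl12 (141 RPKM), of the stalk that binds translation factors, and Mrps24 (125 RPKM), of the head of the small subunit. At the low end were Mrps33 (13.0 RPKM) and Mrpl27 (11.5 RPKM). The lowest of all were Mrps10 (5.96 RPKM), Mrpl19 (2.38 RPKM) and Mrpl23 (1.46 RPKM). The order was much the same in every group: Spearman's rho of member RPKM between any 2 groups was 0.86 to 0.99 over 62 members, which share their lengths.

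The exonic length is that of 1 transcript picked at random per gene, and the order depends on it. Without length Mrps25 was first at 303 CPM, with a counted length of 6225 bases, and Mrpl14 had rank 6. The reads do not tell the strands apart, so they can also come from neighbours on either strand. In GENCODE M21, 27 of 62 members have an exon under an exon of another gene, for Mrps25 over 4590 bases of Nr2c2.

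**Figure D2:**
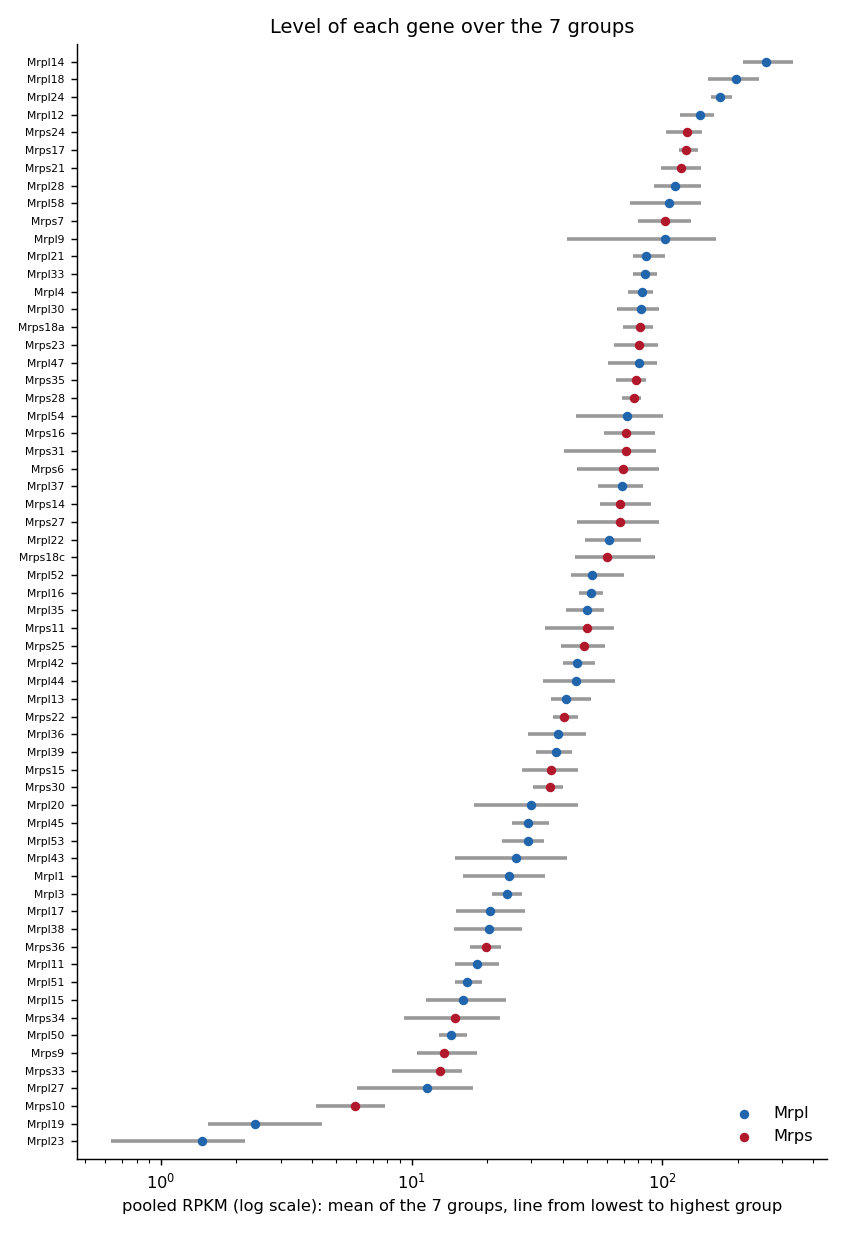
Level of each of the 62 genes in pooled RPKM (x axis, log scale); points are means of the 7 groups, blue for Mrpl and red for Mrps, and lines run from the lowest to the highest group. Mrpl14 is highest at 258 RPKM and Mrpl23 lowest at 1.46 RPKM.

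Over the 7 groups the ratio of a member's highest to its lowest pooled level had a median of 1.58-fold, and was under 1.5-fold in 27 of 62 members and under 2-fold in 48. The widest were Mrpl9 with 3.90-fold and Mrpl23 with 3.41-fold. Mrpl23 lies beside the tunnel exit; its pooled level was under 1 CPM in 2 groups, 0.671 CPM in gonad FGOs (Poisson 95% interval 0.551 to 0.810) and 0.496 CPM in 6 dpp FGOs (0.392 to 0.618), and 2 gonad FGOs had no read. Such intervals cover counting error only.

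Between oocytes of 1 group the median coefficient of variation of a member was 10.9% in in vivo FGOs, 16.4% in iPSC FGOs, 18.0% in 6 dpp FGOs and 22.6% in gonad FGOs, or 14.8% in gonad FGOs without number 19. In GROs it was 12.9% for iPSC, 15.6% for gonad and 14.7% for in vivo origin.

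The first question was how the members changed from GRO to FGO, asked separately for each origin. Ratios are the log2 of pooled CPM + 0.5 in FGOs over pooled CPM + 0.5 in GROs, and a gene was called higher or lower from 1.5-fold (0.58 on the log2 scale). All 62 members passed the filter (CPM above 1 in at least 3 oocytes of the compared groups) in every comparison. These 3 comparisons share no libraries.

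In vivo, 10 members were lower in FGOs (16.1% of members; 26.6% of all 13148 genes tested) and 2 were higher (3.23%; 18.7% of all genes). The median ratio was -0.10 for members and -0.11 for all genes. In gonad-derived oocytes 16 members were lower (25.8%; 21.0% of all genes) and 0 were higher (14.7% of all genes), and the member median was -0.30 against -0.05. Without gonad FGO 19 these counts were 13 lower (21.0%; 20.7% of all genes) and 1 higher (1.61%; 14.5% of all genes), Mrps31, which stood just under the threshold at 0.58 with it. In iPSC-derived oocytes 13 members were lower (21.0%; 27.6% of all genes) and 2 higher (3.23%; 15.2% of all genes), with medians of -0.07 and -0.11. Under TMM scaling (edgeR's library factors) the split in iPSC-derived oocytes was 4 higher and 10 lower, with a member median of 0.00. The median of all genes also moved under it, from -0.11 to -0.04, so the shares of all genes above do not apply to this split. The shares of lower members were near or below the background in the in vivo and iPSC comparisons and, in the gonad comparison, above it with gonad FGO 19 and near it without, and the shares of higher members were below it in all 3.

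Between 1.5-fold lower and 1.5-fold higher lay 80.6% of members in vivo, 74.2% in gonad-derived and 75.8% in iPSC-derived oocytes, and of all genes 54.7%, 64.3% and 57.2%. Without gonad FGO 19 the gonad values were 77.4% of members and 64.8% of all genes. All genes include any with CPM above 1 in at least 3 oocytes, and they were not matched to the members for level.

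**Figure D3:**
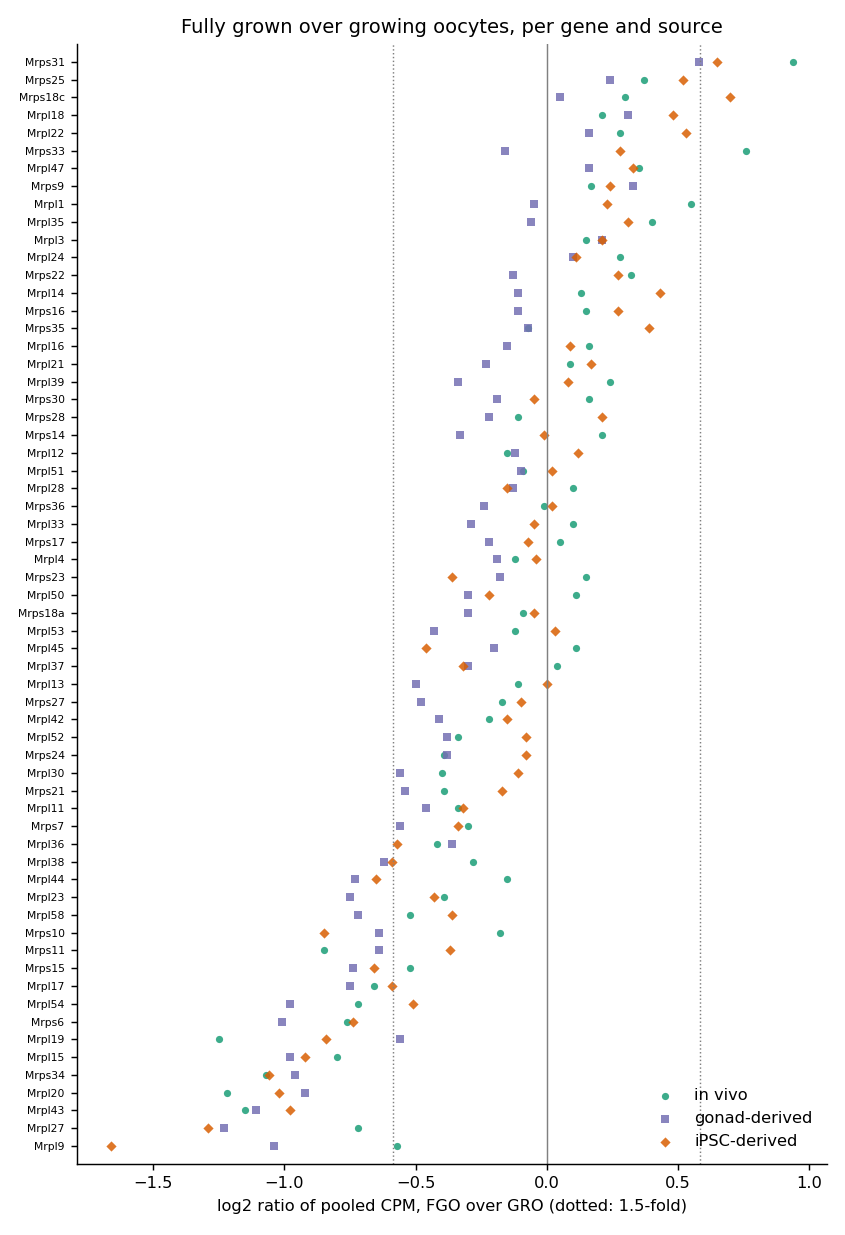
Log2 ratio of pooled CPM in FGOs over GROs (x axis) for each of the 62 genes (y axis, ordered by the mean of the 3 ratios); circles are in vivo, squares gonad-derived and diamonds iPSC-derived oocytes, and dotted lines mark 1.5-fold. Mrpl9 is lowest at -1.66 in iPSC-derived oocytes and Mrps31 highest at 0.94 in vivo.

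Of the 62 members 20 passed 1.5-fold in at least 1 origin (32.3%; 63.8% of the 12478 genes that passed the filter in all 3). Lower in all 3 were 7 (11.3%; 13.8% of these genes): Mrpl15, Mrpl17, Mrpl20, Mrpl27, Mrpl43, Mrps34 and Mrps6. Under TMM scaling or DESeq2 size factors 6 of them remained, all but Mrpl17. Higher in all 3 were 0 (7.12% of these genes), and with either of those scalings or without gonad FGO 19 there was 1, Mrps31. Of the 10 members lower in vivo 9 were lower in gonad-derived oocytes (90.0% of the in vivo list and 56.2% of the gonad list of 16) and 8 in iPSC-derived oocytes (80.0%, and 61.5% of the list of 13). The gonad and iPSC lists shared 12 members, which were 12 of the 16 and 92.3% of the 13. Without gonad FGO 19 the gonad list of 13 shared 8 members with the in vivo list (61.5% and 80.0%) and 10 with the iPSC list (76.9% of each). With all oocytes, over the same 12478 genes, 57.0% of those lower in vivo were lower in gonad-derived oocytes and 64.7% in iPSC-derived ones. Of those lower in gonad-derived oocytes 71.7% were lower in vivo and 85.1% in iPSC-derived oocytes, and of those lower in iPSC-derived oocytes 62.4% were lower in vivo and 65.3% in gonad-derived ones. The member lists hold only 10 to 16 genes, and the differences from these shares were not tested. Across the 62 members Pearson's r of the ratios was 0.84 between in vivo and gonad growth, 0.80 between in vivo and iPSC growth and 0.88 between gonad and iPSC growth; across all genes tested in both it was 0.75, 0.70 and 0.87. These correlations are across genes, which share gene length and base composition, and are given as a description.

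Mrpl43, a mitochondria-specific protein of the large subunit, had a median of 55.2 CPM over in vivo GROs (42.4 to 66.5) and of 19.0 CPM over in vivo FGOs (10.6 to 51.2). The oocyte ranges overlapped through 2 FGOs, and 18 of 20 FGOs lay below every GRO, for a log2 ratio of -1.15. In gonad-derived oocytes its median was 49.1 CPM in GROs (33.5 to 64.1) and 23.7 CPM in FGOs (1.15 to 32.9, or from 12.9 without number 19). In iPSC-derived oocytes it was 46.5 CPM (33.5 to 63.5) and 24.1 CPM (16.0 to 31.7). Neither cultured pair of ranges overlapped, and the log2 ratios were -1.11 and -0.98. The gene (chr19:45005014-45006442) shares 507 exonic bases with Twnk on the opposite strand.

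Mrpl27 is the counterpart of bacterial L27, which reaches toward the peptidyl transferase centre. Its median was 14.5 CPM in in vivo GROs (10.4 to 19.9) and 8.28 CPM in in vivo FGOs (5.97 to 14.4), with a log2 ratio of -0.72 and overlapping ranges. In gonad-derived oocytes the medians were 15.2 CPM (10.5 to 24.7) and 6.76 CPM (0.144 to 8.69, or from 3.23 without number 19), with a ratio of -1.23. In iPSC-derived oocytes they were 13.6 CPM (10.1 to 17.5) and 5.28 CPM (3.08 to 8.16), with a ratio of -1.29, so all FGOs of both cultured origins lay below all GROs of the same origin.

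Mrps34, a mitochondria-specific protein of the small subunit, differed by nearly the same factor in each origin, with log2 ratios of -1.07 in vivo, -0.96 in gonad-derived and -1.06 in iPSC-derived oocytes. In vivo its median was 30.0 CPM in GROs (22.5 to 49.2) and 13.3 CPM in FGOs (9.40 to 30.4), and 18 of 20 FGOs lay below every GRO. Its exons (gene at chr17:24895120-24896289) share 1309 bases with Mapk8ip3 on the opposite strand and 763 with Nme3 on the same strand, and its counted exonic length of 1503 bases is longer than the 1170 bases of the RefSeq gene, so its counts are uncertain.

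Mrpl20, whose bacterial counterpart joins early in the assembly of the large subunit, had medians of 33.2 CPM in in vivo GROs (23.9 to 51.2) and 13.5 CPM in in vivo FGOs (8.27 to 22.2), and these ranges did not overlap. The log2 ratios were -1.22 in vivo, -0.92 in gonad-derived and -1.02 in iPSC-derived oocytes. Mrps6, the counterpart of bacterial S6, had medians of 86.8 CPM (60.4 to 130) in in vivo GROs and 49.5 CPM (45.2 to 64.8) in in vivo FGOs. Its ratios were -0.76 in vivo, -1.01 in gonad-derived and -0.74 in iPSC-derived oocytes, and all 24 gonad FGOs lay below all gonad GROs. Mrpl15 had ratios of -0.80, -0.98 and -0.92 in the same order, and Mrpl17 of -0.66, -0.75 and -0.59.

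Mrpl9, the counterpart of bacterial L9, differed between origins in the size of its ratio. It was -0.57 in vivo, just under the threshold, -1.04 in gonad-derived and -1.66 in iPSC-derived oocytes, the lowest ratio of any member in any comparison. Its median was 299 CPM in in vivo GROs (211 to 431), 234 CPM in gonad GROs (165 to 370) and 242 CPM in iPSC GROs (113 to 389), and these ranges overlapped. In FGOs the medians were 216 CPM in vivo (111 to 257), 128 CPM for 6 dpp (105 to 316), 105 CPM for gonad (31.8 to 216) and 74.6 CPM for iPSC origin (40.7 to 175). Every pair of FGO groups still overlapped, and 22 of 24 iPSC FGOs lay below every iPSC GRO. Mrpl9 shares 157 exonic bases with Oaz3 on the opposite strand.

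Mrpl19, the counterpart of bacterial L19 at a bridge between the subunits, had the lowest in vivo ratio of the group, -1.25, and ratios of -0.56 in gonad-derived and -0.84 in iPSC-derived oocytes. Its median was 21.0 CPM in in vivo GROs (13.7 to 40.6) and 8.83 CPM in in vivo FGOs (5.56 to 15.7). The gene shares 1962 exonic bases with Gcfc2 on the opposite strand. Mrps11 was lower in vivo (-0.85) and in gonad-derived oocytes (-0.64) and was at -0.37 in iPSC-derived ones. Without gonad FGO 19, where Mrps11 had 8.20 CPM against a group median of 54.7 CPM, the gonad call was not kept. Mrps11 shares 173 exonic bases with Mrpl46.

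Few members were higher in FGOs. Mrps31, a mitochondria-specific protein of the small subunit, had a median of 72.8 CPM in in vivo GROs (45.5 to 101) and 144 CPM in in vivo FGOs (78.8 to 196), for a ratio of 0.94, and 17 of 20 FGOs lay above every GRO. In gonad-derived oocytes the medians were 97.1 CPM (50.8 to 220) and 160 CPM (8.77 to 215, or from 117 without number 19), and 23 of 24 FGOs lay above the GRO median but 0 above the highest GRO. In iPSC-derived oocytes they were 106 CPM (85.8 to 157) and 168 CPM (132 to 245), with a ratio of 0.65. Mrps33 was higher in vivo, with medians of 8.28 CPM (5.56 to 13.0) and 14.6 CPM (12.3 to 21.8) and a ratio of 0.76, and its ratios in culture were -0.16 for gonad and 0.28 for iPSC origin. Mrps18c, 1 of the paralogs of bacterial S18, was higher in iPSC-derived oocytes, with medians of 55.2 CPM (45.3 to 74.9) and 96.5 CPM (40.6 to 122) and a ratio of 0.70, and its ratios were 0.30 in vivo and 0.05 for gonad origin.

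**Figure D4:**
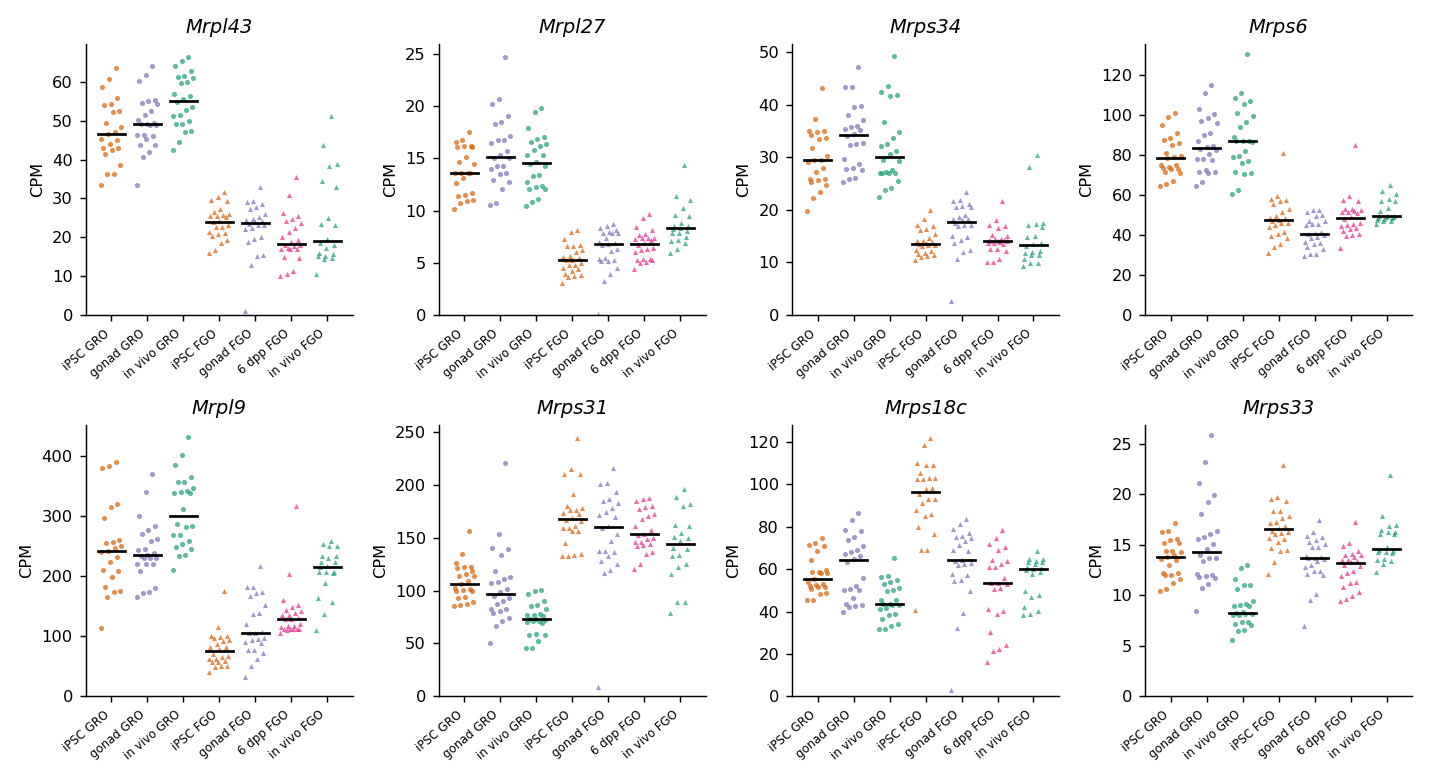
CPM (y axis) of 8 genes in each oocyte by group (x axis); circles are GROs, triangles FGOs, and black bars group medians. Median Mrpl43 is 55.2 CPM in in vivo GROs and 19.0 CPM in in vivo FGOs, and median Mrps33 is 8.28 CPM in in vivo GROs against 14.3 CPM in gonad GROs.

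Read by role, the measured genes listed for the peptidyl transferase centre and core of the large subunit were Mrpl3, Mrpl4 and Mrpl16. Their ratios were -0.19 to 0.21 in the 3 origins. Mrpl27, described above, was not in this list and was lower in all 3 (-0.72, -1.23 and -1.29). The stalk proteins Mrpl11 and Mrpl12 had ratios of -0.46 to 0.12. Around the tunnel exit, Mrpl22, Mrpl24 and the inner membrane tether Mrpl45 lay within -0.46 to 0.53, and Mrpl23 was lower in gonad-derived oocytes (-0.75) and at -0.39 in vivo and -0.43 in iPSC-derived oocytes. This Mrpl23 call rests on 231 reads over the gonad GROs (1.47 CPM) and 109 over the gonad FGOs (0.671 CPM). At such low levels the ratio depends on the pseudocount. In the head and decoding region of the small subunit, Mrps10 was lower in both cultured origins (-0.64 for gonad, -0.85 for iPSC) and at -0.18 in vivo. Without gonad FGO 19, where Mrps10 had 0.431 CPM against a group median of 6.15 CPM, its gonad call was not kept. Mrps7 had ratios of -0.56 to -0.30 and Mrps9 of 0.17 to 0.33. Mrpl58, the peptidyl-tRNA hydrolase that rescues stalled ribosomes, was lower in gonad-derived oocytes (-0.72) and at -0.52 in vivo and -0.36 in iPSC-derived oocytes.

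Of the 4 members listed as mitochondria-specific proteins of the small subunit, Mrps34 was lower in all 3 origins. The others, Mrps22, Mrps27 and Mrps35, lay between -0.48 and 0.39. Mrps31 (0.94, 0.58 and 0.65) and Mrps33 (0.76, -0.16 and 0.28) were not in this list and were named above for their ratios. The large-subunit proteins Mrps18a and Mrps30 lay between -0.30 and 0.16, and Mrps36 between -0.24 and 0.02. By subunit, the median ratio of Mrpl genes was -0.12 in vivo, -0.35 for gonad and -0.13 for iPSC origin, and that of Mrps genes -0.04, -0.23 and -0.05.

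Across members Spearman's rho of the growth ratio with the mean CPM was weak ( 0.32 in vivo, 0.33 for gonad and 0.33 for iPSC origin over 62 members), and rho with exonic length was -0.01 to 0.19. The 13 members with NRF1 letters had median ratios of -0.15, -0.54 and -0.17 in vivo, for gonad and for iPSC origin. In the same order the medians were 0.00, -0.26 and -0.02 for the 20 with ETS letters. For the 10 with YY1 letters they were -0.26, -0.38 and -0.12. The 18 whose windows held none of the 3 had medians of 0.11, -0.23 and -0.06. The ranges of these sets overlapped widely, from -1.15 to 0.28 with NRF1 letters and from -1.22 to 0.94 with none in vivo.

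The remaining comparisons set side by side groups that differ by a culture step at a given stage. The groups can also differ in other ways. The authors report that GROs of iPSC and gonad origin were larger than in vivo GROs, and the labels give no strain for the in vivo groups. The parts of oocyte size and strain in the ratios were not tested. In vitro PGC differentiation (IVP) was taken from the ratio of iPSC to gonad oocytes of 1 stage, in vitro oocyte differentiation (IVD) from the ratio of gonad to in vivo oocytes among GROs and of gonad to 6 dpp oocytes among FGOs, and in vitro growth (IVG) from the ratio of 6 dpp to in vivo FGOs. Comparisons with a group in common share its libraries, so their values are only set side by side.

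For IVP at the GRO stage 0 members were higher and 0 lower (6.84% and 6.11% of all 13029 genes), with a median of -0.06 for members and 0.00 for all genes. The ends of the range were Mrps9, of the head of the small subunit, at 0.51 and Mrps14, the counterpart of bacterial S14, at -0.47. Median Mrps9 was 22.1 CPM in iPSC GROs (17.1 to 28.5) and 15.1 CPM in gonad GROs (10.8 to 21.8), and 12 of 23 iPSC GROs lay above every gonad GRO. Median Mrps14 was 135 CPM (105 to 174) and 180 CPM (114 to 280), with overlapping ranges.

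For IVD at the GRO stage members leaned to higher levels in gonad than in vivo GROs: 47 of 62 ratios were above 0, and 53 were above the median of all genes (-0.04), with a member median of 0.14. Of them 3 were higher (4.84%; 10.1% of all 13059 genes) and 1 was lower (1.61%; 12.7% of all genes). All 3 encode proteins of the small subunit. Mrps33 had medians of 14.3 CPM (8.46 to 25.8) and 8.28 CPM (5.56 to 13.0), with a ratio of 0.75. Mrps27, a pentatricopeptide repeat protein, had medians of 209 CPM (119 to 267) and 110 CPM (81.1 to 172), with a ratio of 0.73. Mrps14 had medians of 180 CPM (114 to 280) and 123 CPM (78.9 to 140), with a ratio of 0.67. Each of these pairs of ranges overlapped, and 16, 16 and 21 of 24 gonad GROs lay above every in vivo GRO. Mrpl19 was lower, with medians of 12.3 CPM (7.19 to 20.1) and 21.0 CPM (13.7 to 40.6) and a ratio of -0.80. The median ratio was 0.18 for Mrps and 0.13 for Mrpl genes. In the same comparison cytosolic ribosomal protein genes had a median of 0.00 (30 of 63 above 0). Nuclear genes of oxidative phosphorylation had a median of 0.03 (41 of 66 above 0). Of the 7 group medians of Mrps33, that of in vivo GROs was lowest at 8.28 CPM, and the other 6 lay between 13.1 CPM in 6 dpp FGOs and 16.5 CPM in iPSC FGOs.

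For IVP at the FGO stage members leaned to higher levels in iPSC than in gonad FGOs. Of 62 ratios 47 were above 0, and the member median was 0.18 against -0.08 for all genes. This lean in iPSC against gonad FGOs was not particular to the members. Cytosolic ribosomal protein genes had a median of 0.27 (52 of 63 above 0) and nuclear genes of oxidative phosphorylation of 0.23 (51 of 66). Counts of members past 1.5-fold were nevertheless 1 higher (1.61%, against 6.35% of all 12889 genes) and 0 lower (13.6% of all genes). Under TMM scaling they were 3 higher and 0 lower. The median of all genes also moved under it, from -0.08 to -0.03, so these shares of all genes do not apply there. Mrps18c was the 1 higher, with medians of 96.5 CPM in iPSC FGOs (40.6 to 122) and 64.2 CPM in gonad FGOs (2.88 to 83.5, or from 32.0 without number 19) and a ratio of 0.59. Of 24 iPSC FGOs 19 lay above every gonad FGO. Mrps27, at 204 CPM (146 to 263) and 136 CPM (101 to 212), was at 0.56, just under the threshold. Mrpl9 was lowest at -0.58. Without gonad FGO 19 the member median was 0.15, the 1 higher member was Mrps27 (0.59), with Mrps18c at 0.53, and Mrpl9 was the 1 lower member (-0.60).

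For IVD at the FGO stage 0 members were higher and 0 lower (5.43% and 3.38% of all 12977 genes), and the medians were 0.01 for members and 0.02 for all genes. Mrps27 was again at the upper end with 0.41, at 136 CPM in gonad FGOs (101 to 212, or up to 185 without number 19) and 106 CPM in 6 dpp FGOs (84.5 to 124), and Mrpl53, whose counted length (1757 bases) also exceeds its RefSeq gene (825 bases), at the lower end with -0.26. Thus median Mrps27 was 225, 209 and 110 CPM in iPSC, gonad and in vivo GROs, and 204, 136, 106 and 104 CPM in iPSC, gonad, 6 dpp and in vivo FGOs. The ranges of Mrps27 in 6 dpp (84.5 to 124 CPM) and in vivo FGOs (90.3 to 127 CPM) overlapped. The range in iPSC GROs (168 to 267 CPM) lay within that in gonad GROs (119 to 267 CPM). Ranges of gonad and in vivo GROs overlapped too, as did those of iPSC and gonad FGOs, and no difference was tested. Mrps27 shares 506 exonic bases with 6430562O15Rik on the opposite strand.

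For IVG at the FGO stage 0 members were higher (5.30% of all 12932 genes) and 1 was lower (1.61%; 11.2% of all genes), with medians of -0.08 for members and -0.04 for all genes. The lower one was Mrpl23, the least abundant member, with medians of 0.449 CPM in 6 dpp FGOs (0.151 to 1.32) and 1.04 CPM in in vivo FGOs (0.148 to 1.84). The ranges overlapped fully, and the ratio of -0.62 became -0.28 with a pseudocount of 2 CPM. Mrpl9 was at -0.58 and the upper end was Mrpl20 at 0.39, at 18.5 CPM (11.6 to 34.0) and 13.5 CPM (8.27 to 22.2).

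**Figure D5:**
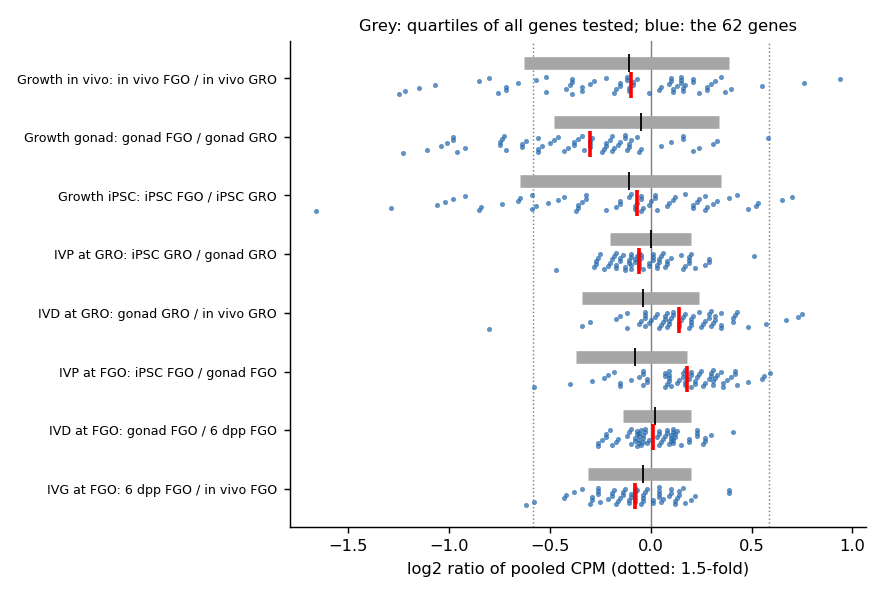
Log2 ratio of pooled CPM (x axis) for the 8 comparisons (y axis); blue points are the 62 genes, red ticks their medians, grey bars the quartiles of all genes tested with black ticks at their medians, and dotted lines 1.5-fold. The largest offsets between red and black ticks are in growth of gonad-derived oocytes (-0.30 against -0.05) and in iPSC against gonad FGOs (0.18 against -0.08).

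In the 5 comparisons of culture steps between 93.5% and 100% of members were within 1.5-fold, compared with 77.2% to 91.2% of all genes. Here too the members and all genes were not matched for level.

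The machinery around the mitochondrial ribosome was described by 6 lists of other nuclear genes. Their counts in growth stand beside 26.6%, 21.0% and 27.6% of all genes lower and 18.7%, 14.7% and 15.2% higher in vivo, in gonad-derived and in iPSC-derived oocytes. The 3 measured ribosomal proteins with other names, Aurkaip1, Chchd1 and Gadd45gip1, lay within 1.5-fold in 7 of the 8 comparisons, the exception being Gadd45gip1, higher in iPSC FGOs than iPSC GROs (622 against 361 CPM, ratio of 0.78). Of 26 assembly factors and rRNA modifiers 3 were higher and 6 lower in in vivo FGOs, 1 and 10 in gonad FGOs, and 1 and 9 in iPSC FGOs. Lowest of them were the methyltransferases of the large ribosomal RNA: Mrm1 had 9.64 CPM in in vivo GROs and 1.46 CPM in in vivo FGOs (ratio of -2.37), Mrm2 9.21 and 2.21 CPM (-1.84) and Mrm3 3.00 and 0.745 CPM (-1.49). The same 3 genes had ratios of -2.49, -2.70 and -1.91 in gonad-derived and of -2.17, -2.55 and -1.89 in iPSC-derived oocytes. Nsun4, an rRNA methyltransferase that also acts in joining the subunits, was the highest of the list in each origin, at 1.30, 0.90 and 0.85.

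Of 15 translation factors and mRNA carriers 0 were higher in any origin, and 4 were lower in vivo, 2 in gonad-derived and 2 in iPSC-derived oocytes, shares near or below those of all genes (26.6%, 21.0% and 27.6%). The initiation factor Mtif2 was lower in all 3 (-0.71, -0.71 and -1.56). Of 14 mitochondrial aminoacyl-tRNA synthetases 8, 6 and 8 were lower, shares above those of all genes, and 1, 0 and 0 higher, and the median ratios were -0.63, -0.46 and -0.88. Iars2 had 14.3 CPM in in vivo GROs and 3.21 CPM in in vivo FGOs, and 14.4 and 1.32 CPM in iPSC-derived ones. Of 16 genes of mitochondrial DNA transcription and replication 8, 8 and 7 were lower, also above those shares, and 1, 1 and 1 higher. Tfam, which packages the mitochondrial genome and starts its transcription, had 139 CPM in in vivo GROs and 51.0 CPM in in vivo FGOs (-1.44), and ratios of -2.05 and -2.20 in gonad-derived and iPSC-derived oocytes.

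Of 10 filtered nuclear regulators 3, 4 and 3 were lower (26.6%, 21.0% and 27.6% of all genes) and 2, 1 and 0 higher (18.7%, 14.7% and 15.2%). Gabpa, a subunit of GABP, had ratios of -1.83, -2.56 and -3.02, and Yy1 of -2.24, -1.67 and -1.58. For comparison 63 cytosolic ribosomal protein genes had median growth ratios of -0.19, -0.32 and 0.08, and 66 nuclear genes of oxidative phosphorylation of -0.36, -0.42 and -0.18. Of the latter 22, 22 and 5 were lower, so the lower share was above that of the members in vivo and in gonad-derived oocytes.

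In the culture steps at most 4 genes of any of the 6 lists around the mitochondrial ribosome passed 1.5-fold in 1 direction. In iPSC against gonad FGOs, where 6.35% of all genes were higher and 13.6% lower, 6 of 63 cytosolic ribosomal protein genes were higher and 1 lower, and 5 of 66 genes of oxidative phosphorylation were higher and 3 lower. In 6 dpp against in vivo FGOs Tfam was lower (25.3 against 51.0 CPM), as was Gabpa (2.38 against 7.82 CPM, -1.53), and 4 of 25 assembly factors and rRNA modifiers were lower (11.2% of all genes), led by Mrm3 (-0.90). In gonad against in vivo GROs 3 of 10 regulators were lower (12.7% of all genes), namely Yy1 (-1.15), Sp1 (-0.91) and Gabpa (-0.67), and 2 of 26 assembly factors and rRNA modifiers were higher (10.1% of all genes), Lyrm1 (0.87) and Rcc1l (0.73). In iPSC against gonad FGOs 2 of 14 synthetase genes were lower (13.6% of all genes), Mars2 (-1.30) and Iars2 (-0.79).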

How the data were processed

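Polyadenylated RNA of single oocytes, freed of somatic cells and zona, was sequenced with unstranded Smart-seq2 chemistry. The deposited values are raw counts by gene and oocyte. The authors aligned reads with STAR to GRCm38 plus spike-in sequences, and QuasR counted uniquely mapped reads over the exons of 1 transcript drawn at random for each gene. Whether strand was used in counting is not stated, but unstranded reads cannot separate genes that overlap on opposite strands. Where promoters overlapped, the authors kept 1 at random; mitochondrial ribosomal protein genes without a row were not analysed here. The deposited table also gives that transcript's exonic length.

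Symbols came from RefSeq GRCm38.p6 (21907 of 21950 identifiers). Counts were summed over the oocytes of a group and divided by their summed totals (CPM), with exact Poisson 95% intervals. Totals ran from 2.17 to 13.7 M (M for 1000000 reads). Amplified reads are not separate molecules, so the intervals cover counting error only. Ratios used a pseudocount of 0.5 CPM, after a filter of CPM above 1 in at least 3 oocytes of the 2 groups, and understate changes of low genes. Each group is 1 sample, so no test, p-value or replicate check was possible. The ratio step was tested on simulated data.

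In each comparison up to 5 members per direction with the largest ratio past 1.5-fold are named, or else the highest and the lowest. Over all groups the 5 highest and 5 lowest by level, members under 1 CPM and members of role lists are named, and of other lists up to 3 examples. Mrpl17, Mrps25, Nsun4 and the members of single oocytes were named after their values were seen. Members and lists were chosen with earlier results of these data known. Alternatives were other scalings (edgeR 4.0.16, DESeq2 1.42.0), pseudocounts, filters, summaries over oocytes, folds and left-out oocytes. Python 3.11.15, pandas 2.3.3 and scipy 1.17.1 were used.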

Additional observations from a re-analysis of the deposited data

How the results depend on the processing

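Over 593 recomputed values none changed the sign of a ratio past 1.5-fold. The median of members lay between -0.32 and -0.26 in growth of gonad-derived oocytes, 0.14 and 0.23 in iPSC against gonad FGOs and 0.13 and 0.16 in gonad against in vivo GROs. Counts of members that moved by over 1.5 times follow, and the cause was not tested. No share of all genes under the same setting stands beside them, so they are not set against a background. At 2-fold, 0 members were higher and 4 lower in growth in vivo, 4 lower in growth of gonad-derived and 0 higher and 4 lower in growth of iPSC-derived oocytes, 0 higher and 0 lower in gonad against in vivo GROs, 0 higher in iPSC against gonad FGOs and 0 lower in 6 dpp against in vivo FGOs. With TMM scaling or DESeq2 size factors, 1 member was higher in gonad growth, 4 in iPSC growth and 3 in iPSC against gonad FGOs. With medians over oocytes these were 1 in gonad growth and 0 in iPSC against gonad FGOs, and 2 members were lower in 6 dpp against in vivo FGOs; means over oocytes gave 2 lower there too. A pseudocount of 2 CPM gave 0 higher in iPSC against gonad FGOs and 0 lower in 6 dpp against in vivo FGOs, and one of 0.1 CPM gave 2 and 2. In iPSC against gonad FGOs 1 member (Mrpl9) was lower without gonad FGOs 5 and 22, and 1 without gonad FGO 19, an alternative chosen after seeing the data, which also gave 1 higher in gonad growth. Leaving out 1 oocyte at a time gave 0 to 1 higher in gonad growth, 0 to 1 higher and 0 to 1 lower in iPSC against gonad FGOs, and 1 to 2 lower in 6 dpp against in vivo FGOs. By medians over oocytes Mrps14 was at 0.55 in gonad against in vivo GROs. By CPM without length, Mrpl14, Mrpl12 and Mrps24 left the 5 highest members. Without the filter the median of all genes moved by 0.11 in growth in vivo and of iPSC-derived oocytes. Leaving out gonad FGOs 5 and 22 has no bearing on 6 dpp against in vivo FGOs. No paired analysis was possible because oocyte numbers tie no oocytes together and no test was made. Depth limits Mrpl23 most, with 79 reads over the 24 6 dpp FGOs.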

Other observations

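Gonad FGO 19 was not uniformly low. Of 62 members 51 had their lowest value of the 24 gonad FGOs in this oocyte and 5 their highest. Compared with the group median, 41 members were at least 2-fold lower, as were 30.7% of the 12368 genes with CPM above 1 in at least 3 gonad FGOs, and 0 members were at least 2-fold higher, compared with 9.78% of those genes. The lowest were Mrpl33 (0.719 CPM against a group median of 48.6 CPM), Mrpl12 (4.74 against 167 CPM), Mrpl14 (9.06 against 190 CPM) and Mrps22 (6.18 against 129 CPM). The 5 at the top of the group were Mrpl44 (80.2 against 51.0 CPM), Mrps27 (212 against 136 CPM), Mrpl45 (110 against 79.9 CPM), Mrps14 (190 against 147 CPM) and Mrpl3 (95.5 against 74.4 CPM). The library had 6.95 M counts (M for 1000000 reads) and reads in 12805 genes, against a group median of 13781 genes.

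A smaller departure was seen in 6 dpp FGO 18, where 12 of 61 filtered members were at least 2-fold below the group median (5.71% of 12285 genes) and 27 were the lowest of the group. Its lowest members were Mrpl14 (30.6 against 175 CPM) and Mrpl1 (12.8 against 44.0 CPM), followed by Mrps18c (16.4 against 53.5 CPM), Mrpl58 (24.4 against 76.6 CPM) and Mrpl12 (51.4 against 148 CPM). In the lowest oocyte of each of the other 5 groups 0 or 1 member was at least 2-fold low. These oocytes and genes were picked after their values were seen, and what sets the oocytes apart was not tested.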
